A study of Homo sapiens with 6 samples.

Results

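The 9 clade A serpin genes of the chromosome 14 cluster, SERPINA1, SERPINA3, SERPINA4, SERPINA5, SERPINA6, SERPINA9, SERPINA10, SERPINA11 and SERPINA12, were followed in RNA-seq libraries of Hep3B cells. They were taken by name from the 23228 genes of the deposited tables. Of these 9 genes, 7 had reads and 2, SERPINA9 and SERPINA12, had 0 reads in each of the 6 libraries. The libraries labelled PELP1-KD held less RNA of 5 of them (SERPINA1, SERPINA5, SERPINA6, SERPINA10 and SERPINA11), more of SERPINA4, and a level of SERPINA3 that was not called different from control.

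Hep3B is an established human hepatocellular carcinoma line, grown here in RPMI medium. The 3 control libraries came from cells carrying a non-targeting shRNA, and the 3 libraries labelled PELP1-KD from cells carrying PELP1 shRNA. Both were made with lentivirus. Puromycin selection is stated for the PELP1-KD cells, whose stable clones were pooled. The library titles point to PELP1 shRNA 1, whereas the treatment text speaks of both hairpins. The labels also give 2 accounts of library preparation, by selection of mRNA and by depletion of ribosomal RNA. Nothing in the labels ties a library to a culture of its own, so p values measure the spread between these libraries, which may be technical. The comparison asks how the RNA of these liver-secreted proteins stood in cells given PELP1 shRNA.

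Serpins are a family of proteins that mostly inhibit serine proteases. An exposed loop offers the protease a bait, and when the protease cuts it the serpin changes shape and traps the enzyme in a covalent complex. Some family members have lost this activity and carry hormones instead. The clade A genes on the long arm of chromosome 14 arose by duplication, and most are expressed in hepatocytes and secreted into plasma, where α1-antitrypsin is the best known of them because its loss leads to emphysema and its misfolding to liver disease.

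Reads on genes numbered 26758363 to 34456542 per library. Fold changes come from edgeR's quasi-likelihood test on 14537 genes that passed its filter on low counts, with TMM scaling for library composition. A gene was called when its p value, adjusted by the Benjamini-Hochberg method over all genes tested, was below 0.05. All 8 hepatocyte markers examined had reads in every library. Of these, 5 were called lower, ALB among them (65.4% of control), and 3 higher, AFP among them (154% of control). Over all genes tested, 26.8% were called in each direction. The summed level of these markers was 25586 to 26087 CPM (reads scaled to a fixed library size) in control libraries. In those labelled PELP1-KD it was 22912 to 23484 CPM. Of 10 markers of other cell types, HBB and KRT5 had 0 reads, and their summed level was 45.5 to 50.3 CPM in control libraries and 62.9 to 66.9 CPM in those labelled PELP1-KD, most of it from CD68. Their part in the results was not tested. The reads of PELP1, the targeted gene, numbered 5338, 5127 and 5348 in control and 4318, 4135 and 4846 under the PELP1-KD label. Its log2 fold change was −0.08 (standard error 0.04, adjusted p = 0.101 from edgeR), and with the replicate number as a block it was called (−0.08, adjusted p = 0.0106). After scaling the groups did not overlap, and 94.5% of the control level was left. The targeted RNA thus lay near its control level in these libraries, and each direction below is that of the labels. For the protein, the study reports a reduction by Western blot in its PELP1-KD Hep3B cells. In bulk RNA, fewer cells that express a gene and less RNA per cell cannot be told apart.

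The cluster spans 340.7 kb of chromosome 14 in hg19, from 94749650 to 95090390. From its lower end, SERPINA10, SERPINA6, SERPINA1, SERPINA11, SERPINA9 and SERPINA12 lie on the minus strand, and SERPINA4, SERPINA5 and SERPINA3 follow on the plus strand. None of their exons shares a base with another gene of the annotation that was used for counting. Gaps between neighbours run from 9.94 kb (SERPINA11 to SERPINA9) to 53.4 kb (SERPINA6 to SERPINA1). Exon reads were summed per gene, so start sites are not told apart. This matters for SERPINA1, for which 14 of 20 GENCODE transcripts begin in the outermost exon of the tables and 5 in the next exon. It also matters for SERPINA5, for which 2 of 12 GENCODE transcripts begin in the first exon of SERPINA4, and reads on that exon count toward SERPINA4.

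Up to 250 bases before a RefSeq start are shown for SERPINA1, SERPINA10, SERPINA6 and SERPINA5, which were called lower, and for SERPINA4, which was called higher. They let the members be compared for sites of liver transcription factors. Each sequence reads 5′ to 3′ toward the start, was placed on GRCh37 by an exact match that was unique on chromosome 14, and has matches to the searched motifs in capitals. Bases inside exons of the same gene in GENCODE were left off at the end near the start. For SERPINA1 the outermost start is shown. Its window held none of the motifs, as did that of SERPINA4. The window of the SERPINA1 start in the second exon, not shown, did hold a match. These counts do not tell which SERPINA1 start the cells used.
SERPINA1, chr14:94857031-94857222, minus strand: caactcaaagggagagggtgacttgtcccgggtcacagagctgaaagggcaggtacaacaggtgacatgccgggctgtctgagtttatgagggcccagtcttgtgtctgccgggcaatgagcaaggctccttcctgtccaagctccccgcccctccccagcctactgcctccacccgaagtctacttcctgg
SERPINA10, chr14:94759606-94759855, minus strand: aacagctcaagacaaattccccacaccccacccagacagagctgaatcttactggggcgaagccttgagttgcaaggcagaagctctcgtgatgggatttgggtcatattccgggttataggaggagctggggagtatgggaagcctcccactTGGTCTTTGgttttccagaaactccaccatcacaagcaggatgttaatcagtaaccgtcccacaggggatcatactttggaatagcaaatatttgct
SERPINA6, chr14:94789727-94789923, minus strand: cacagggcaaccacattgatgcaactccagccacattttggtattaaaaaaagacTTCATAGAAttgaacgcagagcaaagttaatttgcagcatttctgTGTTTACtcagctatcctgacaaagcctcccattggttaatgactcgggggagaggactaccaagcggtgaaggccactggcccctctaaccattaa
SERPINA4, chr14:95027529-95027778, plus strand: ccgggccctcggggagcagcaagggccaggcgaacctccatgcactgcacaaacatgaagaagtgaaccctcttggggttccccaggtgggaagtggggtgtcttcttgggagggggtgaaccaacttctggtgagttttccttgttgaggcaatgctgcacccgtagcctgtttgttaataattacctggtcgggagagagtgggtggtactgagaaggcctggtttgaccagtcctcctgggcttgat
SERPINA5, chr14:95047513-95047727, plus strand: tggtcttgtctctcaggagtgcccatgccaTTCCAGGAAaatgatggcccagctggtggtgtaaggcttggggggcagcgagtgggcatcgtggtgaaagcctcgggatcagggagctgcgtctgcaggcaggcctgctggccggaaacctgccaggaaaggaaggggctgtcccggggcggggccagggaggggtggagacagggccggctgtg

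Motifs were searched on both strands of 35116 RefSeq promoter windows, from 250 bases before to 50 bases after the start, of which 13 belong to the 9 serpin genes. The STAT3 motif TTCNNNGAA, present in 7.66% of all windows, matched SERPINA5, SERPINA6 and SERPINA11. CAAAGTCCA, a site of HNF4 searched with up to 1 mismatch and present in 6.97% of all windows, matched SERPINA10 and, before the start in its second exon (at −121 to −113, not shown), SERPINA1. The FOXA motif TGTTTAC (3.42% of all windows) matched SERPINA6. The C/EBP motif TTGCNNAA (10.5% of all windows) matched SERPINA10 and SERPINA12, and TATAAA (11.5%) matched SERPINA12. The STAT3 motif is palindromic, so a site on both strands was taken as 1, and no match overlapped a match to another motif. The TATAAA match lies after the start, at 30 to 35, and a C/EBP match of SERPINA10 crosses the start and is not in capitals. A match is a description of the letters and not a bound site.

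SERPINA1 encodes α1-antitrypsin, the main plasma inhibitor of neutrophil elastase. It was by far the most abundant of the 9, with 69792, 67819 and 70176 reads in control against 45339, 40315 and 48755 under the PELP1-KD label. Every control library lay above every library labelled PELP1-KD, also after scaling. Scaled to a common library size (normalized reads), the levels were 65307 ± 1505 (SD, n = 3) and 47385 ± 1178 (SD, n = 3), so 72.6% of the control level was left. In edgeR this was a log2 fold change of −0.46 with a standard error of 0.03, a 95% interval from −0.54 to −0.38 and an adjusted p of 6.53e-11. Ranked among all genes by RPKM, the CPM per kilobase of exon, SERPINA1 stood between place 101 and 108 in the control libraries and at place 139 or 140 in those labelled PELP1-KD. Its deposited values were not whole in any library, which shows that some of its reads also matched other places or genes and were counted as fractions.

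SERPINA3 encodes α1-antichymotrypsin, an acute phase inhibitor of cathepsin G and chymase. Its normalized reads were 438, 442 and 455 in control against 402, 462 and 389.5 under the PELP1-KD label. The groups overlapped, since replicate 2 of PELP1-KD lay above all 3 control libraries and the other 2 below them. The log2 fold change was −0.09 (standard error 0.08, adjusted p = 0.321 from edgeR) with a 95% interval of −0.31 to 0.12. The level in the libraries labelled PELP1-KD was also more spread, with a coefficient of variation of 9.26% against 1.99% in control, a difference that was not tested. Counting of reads alone gives an SD of 4.57% to 4.66% in a control library and 5.03% to 5.06% under the PELP1-KD label. The control value thus lay below counting error, so the contrast says little about a wider spread in PELP1-KD.

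The next 3 members act in coagulation and the kallikrein system. SERPINA5 encodes protein C inhibitor, a heparin-binding inhibitor of activated protein C and of several other plasma proteases. Control libraries held 5330, 5087 and 5176 SERPINA5 reads and the PELP1-KD libraries 3190, 2768 and 3347, with no overlap between the groups. After normalization these were 4899.7 ± 33.1 and 3279.5 ± 57.8 reads (SD, n = 3 each), or 66.9% of control. The edgeR estimate on the log2 scale was −0.58, with a standard error of 0.04, a 95% interval from −0.68 to −0.48 and an adjusted p of 8.83e-11.

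SERPINA10 encodes the protein Z-dependent protease inhibitor, which blocks factor Xa on membranes. Its reads came to 399, 410 and 392 in control against 228, 179 and 249 under the PELP1-KD label, again without overlap. Group means were 378 ± 13.96 and 230.3 ± 20.1 normalized reads (SD, n = 3 each). By edgeR the log2 difference was −0.71 (95% interval −0.95 to −0.47, standard error 0.09), at an adjusted p of 8.37e-07.

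SERPINA4 encodes kallistatin, an inhibitor of tissue kallikrein, and was the only member called higher. After scaling, control libraries held 183, 212 and 217 normalized reads and the PELP1-KD libraries 258, 253 and 249. The groups did not overlap after scaling, although the raw reads did, at 200, 221 and 228 against 252, 217 and 249. edgeR put the rise at 0.31 on the log2 scale, with a standard error of 0.09, a 95% interval from 0.05 to 0.57 and an adjusted p of 0.00912. The call rests on control replicate 1, the lowest of the control libraries. Without it the log2 fold change was 0.24 and the adjusted p from edgeR was 0.0652. SERPINA4 and SERPINA5 lie 11.5 kb apart on the same strand and went opposite ways.

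SERPINA6 encodes corticosteroid-binding globulin, the plasma carrier of cortisol, which does not inhibit proteases. SERPINA6 reads numbered 1880, 1780 and 1796 in control against 1134, 963 and 1210 under the PELP1-KD label. The control libraries were close to each other and all above the others. Means of 1714 ± 8.72 and 1164 ± 42.5 normalized reads (SD, n = 3 each) gave a log2 difference of −0.56 in edgeR, with a standard error of 0.05, a 95% interval from −0.69 to −0.43 and an adjusted p of 6.33e-09.

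SERPINA11, for which no target is given here, was rare. Only 46, 31 and 30 reads were counted in control against 12, 7 and 12 under the PELP1-KD label. These groups did not overlap, and the log2 fold change of −1.61 (adjusted p = 0.000185 from edgeR) was the largest of the cluster in size. With so few reads its standard error was 0.31 and its 95% interval ran from −2.46 to −0.76, so a fall of less than 2-fold is inside the interval. SERPINA9, known from germinal center B cells, and SERPINA12, the adipose factor vaspin, were at 0 reads in all 6 libraries. A count of 0 still allows up to 3 reads, or between 0.0875 and 0.111 CPM per library, for counting error only. SERPINA13, a pseudogene row of the tables just beyond SERPINA3, was at 0 reads as well.

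Of the 7 members tested, 5 were thus called lower, where 26.8% of all genes tested were, and 1 higher, where 26.8% were as well. The other 2 of the 9 genes had 0 reads and were not tested. The filter on low counts removed no member that had a read. The groups did not overlap for 6 members, against 58.8% of all genes tested. With 3 against 3 libraries, an exact two-sided permutation test of a single gene cannot go below p = 0.1, which these 6 reached. At least a 2-fold fall together with an adjusted p below 0.05 was seen for SERPINA11 alone, against 4.79% of all genes tested. The filter on low counts kept SERPINA11 through its control libraries, since it had only 7 to 12 reads under the PELP1-KD label. Its fall, its call and its lack of overlap are thus partly favoured by the filter. No member rose by 2-fold or more (2.85% of all genes tested did, and 7.65% passed that size in either direction). The median log2 fold change of the 7 members with reads was −0.56, beside 0.0044 for all genes tested. Since 53.6% of all genes tested were called in either direction, a call alone sets no member apart.

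**Figure D1:**
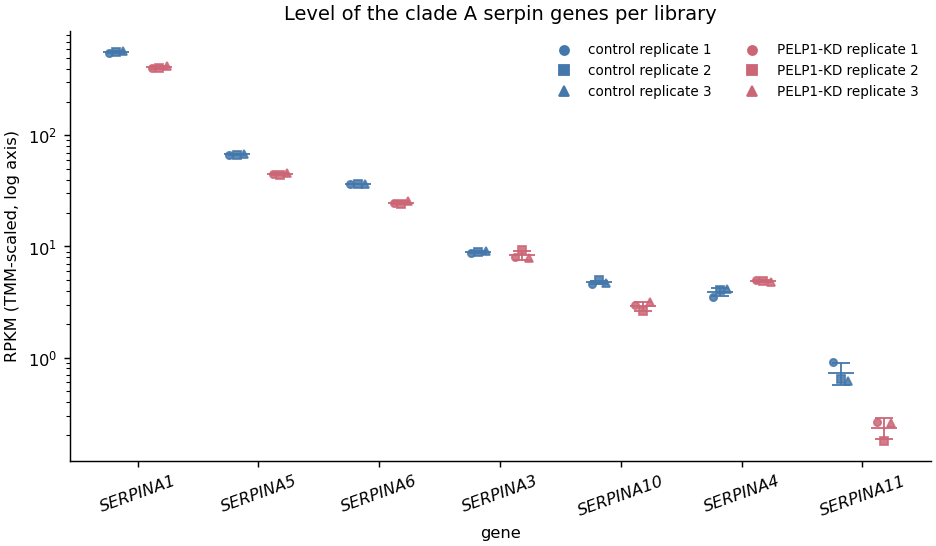
RPKM on a log axis for the 7 serpin genes with reads, by library (symbols) and group (colours), with the mean and SD of 3 libraries per group. SERPINA1 sits near 564 RPKM in control and 409 RPKM in PELP1-KD, and SERPINA10 and SERPINA4 change places between the groups.

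Per length of transcript, the order of the levels was SERPINA1, SERPINA5, SERPINA6 and SERPINA3 in both groups. In the control libraries these stood at 564 ± 12.99, 67.4 ± 0.456, 36.6 ± 0.186 and 8.91 ± 0.177 RPKM (SD, n = 3 each). In the libraries labelled PELP1-KD they stood at 409 ± 10.2, 45.1 ± 0.796, 24.8 ± 0.907 and 8.37 ± 0.775 RPKM. The next pair changed places. SERPINA10 was above SERPINA4 in control, at 4.76 ± 0.176 against 3.91 ± 0.351 RPKM, and below it in the libraries labelled PELP1-KD, at 2.90 ± 0.253 against 4.85 ± 0.0890 RPKM. SERPINA11 came last, at 0.725 ± 0.163 and 0.234 ± 0.0497 RPKM. In neither group did the values of neighbours in this order overlap between libraries. The plot of RPKM by gene shows these steps and the crossing of SERPINA10 and SERPINA4.

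The summed level of the 9 genes is mostly that of SERPINA1, which made up between 89.3% and 89.9% of their reads in each library. Of their summed RPKM, the measure used for the sums below, it made up between 81.9% and 82.7%. The cluster as a whole took 0.227% to 0.236% of the reads on genes in the control libraries and 0.167% to 0.172% in those labelled PELP1-KD. The summed level was 686 ± 13.7 RPKM in control and 495 ± 11.3 RPKM in PELP1-KD (SD, n = 3 each), or 72.2% of control. The groups did not overlap (p = 0.1 by an exact two-sided permutation test, which can give no smaller p). Without SERPINA1 the other members summed to 122 ± 0.701 and 86.3 ± 1.26 RPKM, or 70.6% of control, so the fall in the sum was not that of SERPINA1 alone.

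A ratio of 2 genes within a library does not depend on scaling between libraries. For each 1000 SERPINA1 reads, the control libraries held 6.85, 6.80 and 6.80 SERPINA3 reads and the libraries labelled PELP1-KD 8.67, 9.82 and 7.999. SERPINA3 thus made up more of the pair in every library labelled PELP1-KD, a log2 change of 0.37 (p = 0.1 by the same exact permutation test). The other ratios are given as values, and in each of them the groups did not overlap either. SERPINA4 went from 3.12 ± 0.224 to 5.35 ± 0.227 reads per 1000 SERPINA1 reads (SD, n = 3 each), a log2 change of 0.78. SERPINA5 and SERPINA6 moved nearly with SERPINA1, with log2 changes of −0.12 and −0.10 relative to it. SERPINA10 and SERPINA11 fell further than SERPINA1, by −0.25 and −1.17. The neighbours SERPINA4 and SERPINA5, a pair picked after their values were seen, stood at 41.7 ± 3.61 SERPINA4 reads per 1000 SERPINA5 reads in control and at 77.3 ± 2.50 in PELP1-KD.

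**Figure D2:**
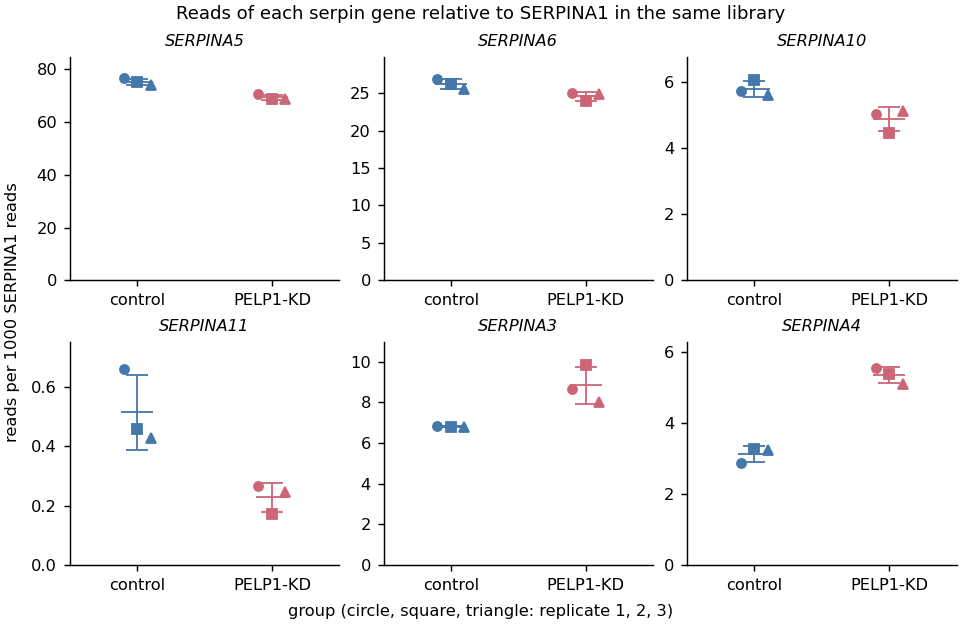
Reads of 6 serpin genes per 1000 SERPINA1 reads of the same library, on linear axes from 0, with the mean and SD of 3 libraries per group. SERPINA3 and SERPINA4 rise relative to SERPINA1 in PELP1-KD, SERPINA5 and SERPINA6 stay close to it, and SERPINA10 and SERPINA11 fall.

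The other genes around the cluster went both ways. Within 1 Mb of its ends the tables hold 25 further genes, of which 15 were tested. Among these, 4 were called lower (26.8% of all genes tested), 6 higher (26.8%), and the median log2 fold change was 0.18. PPP4R4, a regulatory subunit of a protein phosphatase whose gene ends 3.58 kb from SERPINA10, stood at 146 ± 20.6 normalized reads in control and 57.3 ± 9.79 in PELP1-KD (SD, n = 3 each), and its log2 fold change in edgeR was −1.34 with a standard error of 0.16 and an adjusted p of 6.11e-07. Further out on that side, DDX24 and OTUB2 were not called, at 0.07 and −0.14. IFI27L1 and IFI27L2, relatives of an interferon-induced gene, rose by 0.37 and 0.66 (adjusted p = 0.0224 and 0.000862 from edgeR). The groups overlapped for IFI27L1 and did not overlap for IFI27L2. On the SERPINA3 side, CLMN, 557.9 kb away, fell by 1.29 on the log2 scale (standard error 0.11, adjusted p = 8.65e-09 from edgeR). In the tables PPP4R4, SERPINA10, SERPINA6, SERPINA1 and SERPINA11 are thus 5 genes in a row that were called lower, on both strands. IFI27L2, the next gene beyond PPP4R4, was called higher. At its other end the run meets SERPINA9 and SERPINA12, which had 0 reads. The run was picked after the values were seen, it includes the rare SERPINA11, and whether it forms a block was not tested.

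**Figure D3:**
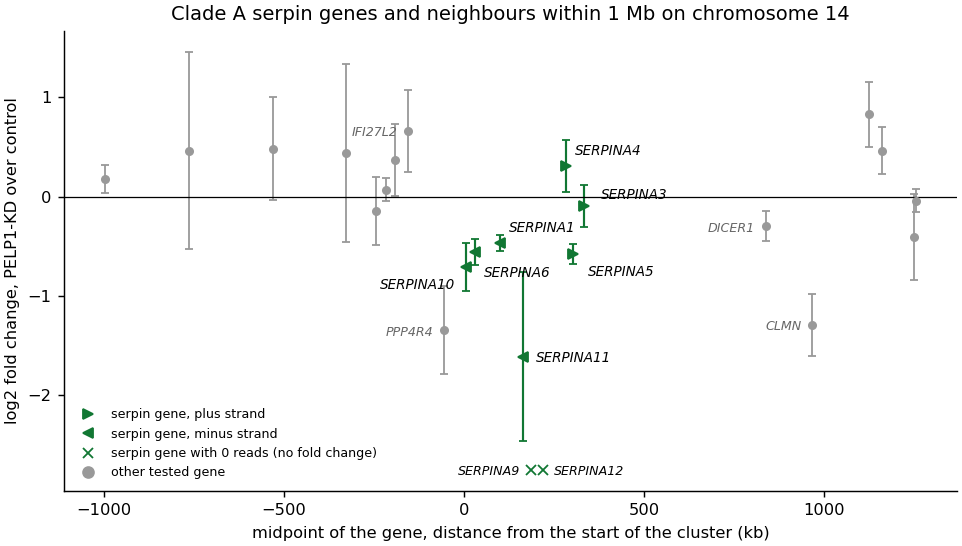
Log2 fold change with its 95% interval for the 7 serpin genes with reads (triangles, by strand) and the 15 tested genes within 1 Mb (grey), against distance from the start of the cluster in kb. The 4 minus-strand serpin genes with reads lie below 0, SERPINA4 lies above 0, and SERPINA3 crosses 0.

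The proteins these genes belong with were looked at as lists. Of 26 serpin genes elsewhere in the genome, 8 were at 0 reads and 16 were tested, of which 9 were called lower and 3 higher, with a median log2 fold change of −0.36. Over all genes tested these shares were 26.8% in each direction and the median was 0.0044, which holds for each list below. SERPINI1, the neural serpin neuroserpin, had means of 303 ± 14.4 and 42.3 ± 8.13 normalized reads (SD, n = 3 each), and fell by 2.85 on the log2 scale (adjusted p = 5.31e-13 from edgeR). SERPINA7, which encodes thyroxine-binding globulin and belongs to clade A but lies on the X chromosome, fell from 368 ± 8.60 to 99.9 ± 4.75 (log2 fold change −1.88, adjusted p = 2.37e-12 from edgeR). The study displays SERPINA7 among genes chosen on these libraries, so its direction is not independent. The 3 higher genes, named after their values were seen, were SERPINB8 (0.64), SERPINC1, which encodes antithrombin (0.55), and SERPINB10 (2.28), which was rare. SERPINB10 had means of 2.50 normalized reads in control and 12.8 in PELP1-KD, so the filter on low counts kept it through the PELP1-KD libraries. Its rise and its call are thus partly favoured by the filter. With at least 10 reads required in every library, 2 genes of this list were called higher.

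Of 15 proteases and cofactors that clade A serpins act on or with, 6 were at 0 reads and 7 were tested. PLAU, the urokinase gene, had means of 162 ± 5.72 and 332 ± 7.06 normalized reads (SD, n = 3 each), and rose by 1.04 on the log2 scale (adjusted p = 5.93e-09 from edgeR). The 4 called lower, named after their values were seen, were those of prothrombin (F2, −0.46), protein C (PROC, −0.46), factor X (F10, −0.19) and protein Z (PROZ, −0.72). Protein Z is the cofactor of the SERPINA10 product, and protein C is the zymogen of a SERPINA5 target.

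Among 21 genes of liver transcription factors and IL6 signaling, 15 were called higher, with a median of 0.22. IL6R, the IL6 receptor, rose by 0.69 on the log2 scale, from a mean of 1189 ± 4.81 to 1923 ± 54.9 (SD, n = 3 each). CEBPB, a factor of the acute phase response, rose by 0.58 (adjusted p = 1.56e-10 from edgeR). Of 15 genes for the handling of secreted proteins in the endoplasmic reticulum, 11 were called lower (26.8% of all genes tested were) and 4 were not called, with a median of −0.20. The chaperones PDIA4 and HSPA5 had log2 fold changes of −0.40 and −0.33.

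SERPINA1 and SERPINA3 are acute phase proteins. Of 16 other acute phase genes, 14 were tested, 9 were called lower and 1, FGB (0.17), was called higher (26.8% of all genes tested in each direction), with a median of −0.15. SAA1 had means of 351 ± 5.03 and 167 ± 0.973 normalized reads (SD, n = 3 each), and fell by 1.07 on the log2 scale. No set test was run on these lists. The plot of log2 fold changes by list places the serpin genes beside them.

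**Figure D4:**
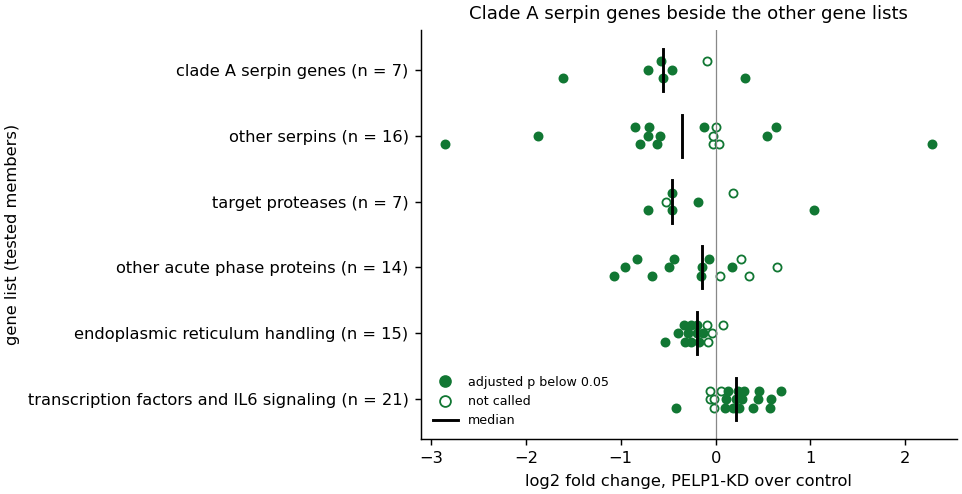
Log2 fold change of each tested gene by list, filled where the adjusted p was below 0.05, with the median of each list as a black line. The serpin genes have their median at −0.56 and the transcription factor and IL6 list at 0.22.

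Over the 6 libraries, the genes whose centred log2 CPM lay nearest to that of SERPINA1 were PCSK6, PLK1 and LRG1, among 11771 genes with a mean of at least 100 reads. Their root mean square differences from it were 0.0166, 0.0182 and 0.0187 on the log2 scale. This is a description of 6 libraries in 2 groups, in which likeness mostly means a like difference between the groups.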

How the data were processed

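RNA-seq of Hep3B cells was analysed in 3 control libraries and 3 libraries labelled PELP1-KD, grouped by the treatment label. Accounts of the mapping to hg19 differ, since the methods text gives TopHat2 followed by HTSeq and the submitters' processing notes give HISAT2 followed by featureCounts. The tables were written by featureCounts 1.5.0-p1, which was set to use strand, to drop reads with a mapping quality under 2 and to divide a read between all places or genes it fits. What the authors deposited are therefore estimated counts per gene with no normalization, of which 10.6% to 13.3% per library were not whole. These were rounded to whole numbers.

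Fold changes come from edgeR 4.0.16 (R 4.3.3; TMM, filterByExpr, robust glmQLFit, glmQLFTest), with Benjamini-Hochberg adjustment over all 14537 genes tested and a threshold of 0.05. Standard errors were obtained by dividing the size of the log2 change by the root of F, and 95% intervals use 4 degrees of freedom. RPKM uses the exon length of the tables and TMM-scaled library sizes. The scripts were tested on simulated counts. Alternatives were DESeq2's size factors, upper-quartile scaling, DESeq2 1.42.0, other filters, no rounding, glmTreat, a replicate block and each library left out. Deviations from the group mean of same-numbered libraries had correlations of 0.334, 0.243 and 0.666 over 6397 genes. All exceed 0.1, so the numbers, which come from the labels, were treated as a possible pairing. Control 2 with PELP1-KD 1 (0.419) and control 1 with PELP1-KD 2 (0.242) correlated about as much, so the pairing is uncertain. The main fits and the permutation tests used the group alone, and the block was an alternative. Replicates differed by more than sampling noise (chi-square per degree of freedom from 1.94 to 7.02), so none was a copy.

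The members and the gene lists were chosen with earlier results of these data known. Besides the 9 members and PELP1, the genes named were, of each list, called genes with at least a 2-fold change and 100 normalized reads in the higher group, at most 3 in each direction, and otherwise the 2 with the smallest p. Named neighbours were those tested within 300 kb and those called with a 2-fold change within 1 Mb. Promoter sequences are from RefSeq and transcript starts from GENCODE v44lift37. Protein sequences were not used here. A gene and a motif are not reported here.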

Additional observations from a re-analysis of the deposited data

How the results depend on the processing

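With each library left out in turn, SERPINA1 stayed between −0.48 and −0.44 on the log2 scale, SERPINA5 between −0.59 and −0.57, SERPINA6 between −0.58 and −0.53, SERPINA10 between −0.77 and −0.65 and SERPINA11 between −1.71 and −1.41, all with an adjusted p from edgeR of at most 0.00211. SERPINA4 lay between 0.24 and 0.36, and its call, and with it the count of members called higher (0 in place of 1), was lost without control replicate 1 (adjusted p = 0.0652). SERPINA3 lay between −0.17 and −0.04 and was called in none of these fits. PELP1 lay between −0.105 and −0.0400 and was called without replicate 3 of PELP1-KD (−0.10, adjusted p = 0.018). With the replicate number as a block, PELP1 was called (−0.083, adjusted p = 0.0106), and of the endoplasmic reticulum list 14 genes were called lower and 1, UGGT1, higher. With the block 7 neighbouring genes were called higher in place of 6, and no member's call changed. With same-numbered libraries paired, the ratio of SERPINA3 to SERPINA1 reads had p = 0.25 in an exact sign-flip test. That is the smallest p this test can give with so few pairs. The 7788 genes called became 613 in glmTreat, which tests against a 2-fold change rather than against none. There 0 members were called lower and 0 higher in edgeR, with the same fold changes (SERPINA1 −0.46, SERPINA4 0.31, SERPINA5 −0.58, SERPINA6 −0.56 and SERPINA10 −0.71, adjusted p = 1, and SERPINA11 −1.61, adjusted p = 0.177). SERPINA11 had no value with at least 10 reads in every library or with a mean of at least 1 RPKM, since it lies under both limits. Under the other scalings, filters and DESeq2 every member kept its direction and its side of the threshold.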
